A study of Mus musculus with 12 samples.

Results

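Rnf213 and the very large inducible GTPases (GVIN) are among the largest interferon-inducible proteins of the mouse, although many GVIN gene copies are annotated as pseudogenes. The 4 genes described here, of 53465 in the deposited table, are Rnf213 on chromosome 11 and Gm4070, Gm8995 and Gm1966 on chromosome 7, taken by their gene names. They were selected on their levels and changes in these same libraries. They were measured by RNA-seq of LSKs, the Lin- Sca-1+ c-Kit+ fraction of bone marrow that holds hematopoietic stem cells and multipotent progenitors. There were 4 groups of 3 libraries, from untreated Tespa1+/+ mice, untreated Tespa1-/- mice, and mice of either genotype on day 9 of recovery from 5-fluorouracil. This drug (5-FU) kills cycling marrow cells and forces the remaining stem cells to regenerate blood. The knockout line was backcrossed to C57BL/6 and is not limited to blood cells, and the Tespa1+/+ mice were littermates. The study's methods give an age of 8 to 10 weeks and 1 injection of 5-FU. Nothing in the labels says that the 3 libraries of a group came from separate mice, so p-values measure the spread between these libraries, which may be technical. Tespa1 itself, in CPM (counts scaled to library size with TMM factors), was at 49.8, 43.0 and 46.5 in untreated Tespa1+/+ and 34.5, 35.0 and 34.9 in untreated Tespa1-/- libraries. After 5-FU it was at 47.2, 55.0 and 57.4 in Tespa1+/+ and 20.8, 19.8 and 17.3 in Tespa1-/- libraries. It was thus lower in every Tespa1-/- library, but transcripts of the locus remained, at 74.9% of the Tespa1+/+ mean in untreated and 36.2% in treated LSKs.

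Rnf213 encodes a giant E3 ubiquitin ligase with a dynein-like AAA+ ATPase core, known as a susceptibility gene of moyamoya disease and for coating intracellular bacteria with ubiquitin. The GVIN proteins (GTPase, very large interferon inducible) belong to the same wide class of interferon-induced GTPases as the immunity-related GTPases (IRG), the guanylate-binding proteins (GBP) and the Mx proteins. Interferons act through their receptors and transcription factors that bind interferon-stimulated response elements in the promoters of target genes. Stem cells are known to keep a set of interferon targets expressed without infection, and interferon drives them out of quiescence.

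In the annotation (GENCODE M21, GRCm38), Rnf213 lies at chr11:119393100-119487418 on the plus strand, is protein coding and has 67 exons in its longest transcript. Gm4070 lies at chr7:105895139-105953967 on the minus strand and is protein coding, with 4 exons of which the largest holds 8709 bases, so that most of the transcript comes from a single exon. Gm8995, at chr7:106504239-106511671, is a transcribed unprocessed pseudogene, and Gm1966, at chr7:106596743-106604035, is an unprocessed pseudogene. Both are on the minus strand and have 1 exon. The 3 genes fall within 708897 bases of chromosome 7, with 4 more GVIN genes of the table between them (Gvin1, Gm8979, Gm8989 and Gm4759). Rnf213 shares no stretch of sequence with Gm4070 beyond an alignment of 13 bases, so Rnf213 and the GVIN genes are grouped here by size and by interferon, not by sequence.

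The GVIN genes resemble each other closely, and how closely decides how far reads can be assigned. The following stretch of 90 bases is shown because the genes differ most there; capitals mark the 26 positions that are not the same in all 4 sequences. It lies in the coding sequence of Gm4070 and Gvin1, on the minus strand of GRCm38, at chr7:106510373-106510462 in Gm8995, chr7:105902542-105902631 in Gm4070, chr7:106602734-106602823 in Gm1966 and chr7:106163959-106164048 in Gvin1.
Gm8995: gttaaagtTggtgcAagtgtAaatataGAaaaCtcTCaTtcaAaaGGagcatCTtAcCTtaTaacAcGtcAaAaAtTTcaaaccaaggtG
Gm4070: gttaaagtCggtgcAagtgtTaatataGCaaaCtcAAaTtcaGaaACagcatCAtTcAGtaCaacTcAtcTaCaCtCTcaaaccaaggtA
Gm1966: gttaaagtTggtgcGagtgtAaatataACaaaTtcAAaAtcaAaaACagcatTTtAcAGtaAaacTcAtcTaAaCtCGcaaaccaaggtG
Gvin1: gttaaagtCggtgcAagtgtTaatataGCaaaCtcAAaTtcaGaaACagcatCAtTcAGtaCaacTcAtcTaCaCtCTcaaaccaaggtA
In this window Gm4070 differed from Gm8995 at 20 bases and Gm1966 differed from it at 19, while Gm4070 and Gvin1 read the same.

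Over whole transcripts, Gm4070 and Gvin1 differed at 3 of 9005 aligned bases. Of all windows of 100 bases in the Gm4070 transcript, 2.3% occurred in no other gene's transcript, against 96.9% for Gm8995, 98.9% for Gm1966 and 97.7% for Rnf213. Gm4070 was 92.1% identical to Gm8995 and 93.0% identical to Gm1966. Over these longest annotated transcripts, reads of Gm8995, Gm1966 and Rnf213 can therefore be told apart from their relatives, whereas reads of Gm4070 and Gvin1 cannot. The table's lengths of Gm8995 (10770 bases) and Rnf213 (20031 bases) exceed those transcripts (7280 and 16716 bases), and the remainder was not checked. How the authors' counting divided reads of Gm4070 and Gvin1 is not given in the sources used here. Values of Gm4070 are uncertain for this reason and are given beside those of Gvin1 and of the pair summed. A pseudogene, Gm18852, also lies on the same strand inside Gm4070. On the opposite strand of Gm4070, the antisense gene Gm20663 had 12 counts in 1 library and 0 in the others, and A930037H05Rik, opposite to Rnf213, had 14 to 85 counts a library.

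Promoters of 300 bases (RefSeq, GRCm38.p6, 250 bases before to 50 after the start) were given for Rnf213 and Gm1966, and are shown because interferon acts through short elements in such windows. Searched on both strands were GAAA followed by any 2 bases and GAAA, the core of an interferon-stimulated response element, and TTC followed by any 3 bases and GAA, the core of a gamma-activated site. The windows of these motifs may overlap. The Gm1966 promoter, at chr7:106644596-106644895 on the minus strand, belongs to a longer RefSeq gene that starts upstream of the position in the table, and held 1 match to the first motif on its reverse strand, 163 bases before the start and in capitals.
Gm1966: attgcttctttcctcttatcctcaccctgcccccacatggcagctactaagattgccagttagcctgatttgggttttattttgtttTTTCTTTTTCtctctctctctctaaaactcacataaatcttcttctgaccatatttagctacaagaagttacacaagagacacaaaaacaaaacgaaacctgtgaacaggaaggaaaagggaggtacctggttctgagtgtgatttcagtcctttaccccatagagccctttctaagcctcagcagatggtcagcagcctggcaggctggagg
The Rnf213 promoter, at chr11:119389849-119390148 on the plus strand, held neither motif. It too lies upstream of the start in the table, so the absence concerns the RefSeq start alone.
Rnf213: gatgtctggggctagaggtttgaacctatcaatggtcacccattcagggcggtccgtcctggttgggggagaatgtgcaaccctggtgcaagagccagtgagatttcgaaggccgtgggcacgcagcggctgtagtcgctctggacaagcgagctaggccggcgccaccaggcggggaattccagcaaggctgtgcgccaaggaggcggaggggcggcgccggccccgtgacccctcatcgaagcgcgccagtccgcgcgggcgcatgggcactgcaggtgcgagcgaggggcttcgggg
The first motif occurred in 3.44% of 32851 mouse promoters of the same length and the second in 8.3%. Among the 59 promoters of 49 interferon-linked genes listed for the comparisons here, 49.2% held the first and 23.7% the second. The match of Gm1966 lies in a run of T and C bases and also concerns the RefSeq start alone. That promoter, at chr7:106644596-106644895, lies well upstream of the locus counted, at chr7:106596743-106604035. Whether it acts on the RNA counted was not tested.

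All members were highly expressed. Together they took 0.364 to 0.37% of all counts in untreated Tespa1+/+ libraries, 0.302 to 0.305% in untreated Tespa1-/- libraries, 0.513 to 0.521% after 5-FU in Tespa1+/+ LSKs and 0.226 to 0.231% after 5-FU in Tespa1-/- LSKs. By CPM, Rnf213 ranked 15 or 16 of all genes in Tespa1+/+ LSKs after 5-FU and 43 to 49 in Tespa1-/- LSKs after 5-FU. These ranks favour long genes, so levels are compared between genes as the deposited FPKM, which divide by gene length.

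On the FPKM scale, the level of Rnf213 was 85.1, 81.0 and 82.2 in the untreated Tespa1+/+ libraries and 56.2, 58.4 and 56.8 in the untreated Tespa1-/- libraries. After 5-FU it was 114.7, 113.6 and 116.5 in Tespa1+/+ and 48.0, 48.8 and 47.7 in Tespa1-/- LSKs. The 4 groups did not overlap, and the order ran from Tespa1+/+ after 5-FU at the top to Tespa1-/- after 5-FU at the bottom.

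The level of Gm8995, the pseudogene with the highest FPKM of the members, was 97.9, 97.5 and 99.1 in untreated Tespa1+/+ LSKs and 89.4, 89.8 and 88.6 in untreated Tespa1-/- LSKs. After 5-FU it was 144.3, 144.9 and 145.5 in Tespa1+/+ and 67.9, 64.6 and 65.9 in Tespa1-/- LSKs. Here too the 4 groups were separate, but the untreated genotypes stood close together. The table divides Gm8995 by a length of 10770 bases, more than the 7433 bases of its locus, so its FPKM would be 1.48 times higher with the length of its longest annotated transcript.

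The level of Gm4070 was 49.7, 49.5 and 51.4 FPKM in untreated Tespa1+/+ LSKs and 49.1, 47.8 and 48.4 in untreated Tespa1-/- LSKs. It was 73.3, 72.7 and 75.0 FPKM after 5-FU in Tespa1+/+ and 31.8, 30.1 and 30.0 FPKM after 5-FU in Tespa1-/- LSKs. The untreated genotypes differed by little more than the spread of their libraries, while the 5-FU groups lay far apart on either side of them.

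The level of Gm1966 was 61.6, 65.6 and 65.1 FPKM in untreated Tespa1+/+ LSKs and 62.8, 60.8 and 61.0 FPKM in untreated Tespa1-/- LSKs, which overlapped. It was 77.7, 79.4 and 77.5 FPKM after 5-FU in Tespa1+/+ and 41.3, 39.4 and 42.7 FPKM after 5-FU in Tespa1-/- LSKs. In 3 groups Gm8995 was highest by FPKM, then Rnf213, Gm1966 and Gm4070, with no overlap between neighbours. In untreated Tespa1-/- LSKs Rnf213 stood below Gm1966, again without overlap, but dividing by the longest annotated transcript in place of the table's length puts Rnf213 above Gm1966 there, at a mean of 68.5 against 61.5. It also puts Gm4070 above Gm1966 after 5-FU in Tespa1+/+ LSKs, at 80.9 against 78.2.

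**Figure D1:**
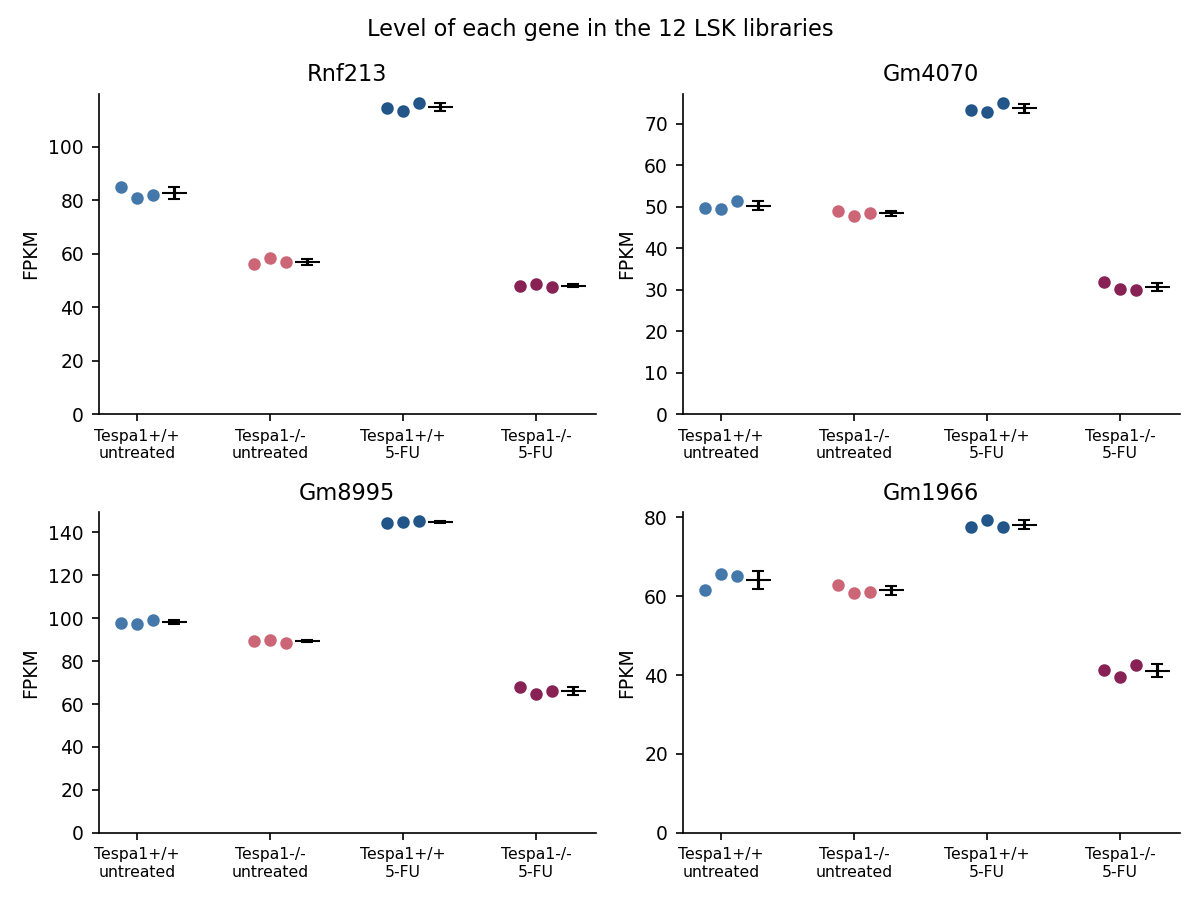
FPKM (vertical axis, from 0) of Rnf213, Gm4070, Gm8995 and Gm1966 in the 4 groups of LSKs; points are the 3 libraries of a group and the bar beside them the mean and SD. Each gene is highest in Tespa1+/+ LSKs after 5-FU and lowest in Tespa1-/- LSKs after 5-FU, and in untreated LSKs the genotypes stand far apart for Rnf213, at 81.0 to 85.1 against 56.2 to 58.4.

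The members were proposed with results of these libraries known, so their changes are a description and support nothing. Fold changes are those of edgeR's quasi-likelihood fit over all genes, and a gene is said to be called when its p adjusted by Benjamini-Hochberg is below 0.05 and its fold change above 1.5. The SE given is the absolute log2 fold change divided by the square root of that test's F statistic. For the members it therefore restates the statistic and is a description only. Beside each count of members stands the share of all genes that met the same rule, from which nothing is read, since the members were selected on these values. The 4 comparisons share libraries in pairs, so their values are set side by side and are not independent of each other.

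Loss of Tespa1 in untreated LSKs went with a lower level of Rnf213 and little difference in the GVIN genes. The mean CPM of Rnf213 in Tespa1-/- LSKs was 68.6% of that in Tespa1+/+ LSKs, a log2 fold change of -0.54 (SE 0.03), while Gm8995 stood at 90.3% (log2 fold change -0.15, SE 0.03), Gm4070 at 95.8% (-0.06, SE 0.04) and Gm1966 at 95.2% (-0.07, SE 0.04). By CPM, the libraries of the 2 genotypes were separate for 3 of the 4 members, all with Tespa1-/- lower, as for 13.2% of the 17055 genes tested (12.4% the other way). Of the 4 members 0 were called, as were 1.54% of genes lower and 0.973% higher, and 2 had an adjusted p below 0.05 without the fold threshold, Rnf213 and Gm8995, as did 3.59% of genes lower and 1.64% higher. In these untreated Tespa1-/- libraries 27219 to 29523 genes had a count, against 21141 to 24745 in all others, and the part of this in the level of Rnf213 was not tested.

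5-FU treatment of Tespa1+/+ mice went with a higher level of every member. Gm8995 stood at 142.8% of its untreated mean CPM (log2 fold change 0.52, SE 0.03), Gm4070 at 142% (0.51, SE 0.04), Rnf213 at 134.4% (0.43, SE 0.03) and Gm1966 at 117.9% (0.24, SE 0.04). All 4 members had every 5-FU library above every untreated library, as did 14% of the 17002 genes tested (14.4% the other way). With fold changes from 1.18 to 1.43, 0 of 4 members were called, as were 2.74% of genes higher and 1.69% lower, and 4 of 4 had an adjusted p below 0.05 without the fold threshold, as did 3.77% of genes higher and 4.18% lower.

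In Tespa1-/- LSKs the same treatment went with a lower level of every member. Gm4070 stood at 63.0% of its untreated mean CPM (log2 fold change -0.68, SE 0.04), Gm1966 at 66.6% (-0.60, SE 0.04), Gm8995 at 73.8% (-0.45, SE 0.03) and Rnf213 at 83.9% (-0.26, SE 0.03). All 4 members had every 5-FU library below every untreated one, as did 18.2% of the 17228 genes tested (20.3% the other way). Gm4070 and Gm1966 were called lower, 2 of 4 members beside 4.07% of genes lower and 6% higher, and 4 of 4 had an adjusted p below 0.05 without the fold threshold, as did 8.64% of genes lower and 10.7% higher. The call of Gm1966 lay near the threshold, at a fold change of 1.51, and was lost without replicate 1 of the untreated group (log2 fold change -0.58) or replicate 2 of the treated group (-0.57), and the log2 fold change of the 7 GVIN genes summed to a single feature was -0.58 (SE 0.04), just short of it.

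The 2 responses to 5-FU left the genotypes furthest apart after treatment. Gm4070 in Tespa1-/- LSKs stood at 42.5% of its mean CPM in Tespa1+/+ LSKs (log2 fold change -1.24, SE 0.04), Rnf213 at 42.8% (-1.23, SE 0.03), Gm8995 at 46.7% (-1.10, SE 0.03) and Gm1966 at 53.8% (-0.90, SE 0.04). All 4 members were called lower, as were 3.03% of 17239 genes (3.95% higher). Without the fold threshold the shares of genes were 5.78% lower and 7.34% higher. All 4 had every Tespa1-/- library below every Tespa1+/+ library, as did 15.6% of genes (17.4% the other way). In the fit of the 12 libraries, the 5-FU response in Tespa1-/- minus that in Tespa1+/+ LSKs was -1.17 for Gm4070 (SE 0.05), -0.95 for Gm8995 (SE 0.04), -0.83 for Gm1966 (SE 0.06) and -0.68 for Rnf213 (SE 0.04) on the log2 scale. At an adjusted p below 0.05, 1.99% of 18696 genes had a lower and 3.02% a higher response in Tespa1-/- LSKs.

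**Figure D2:**
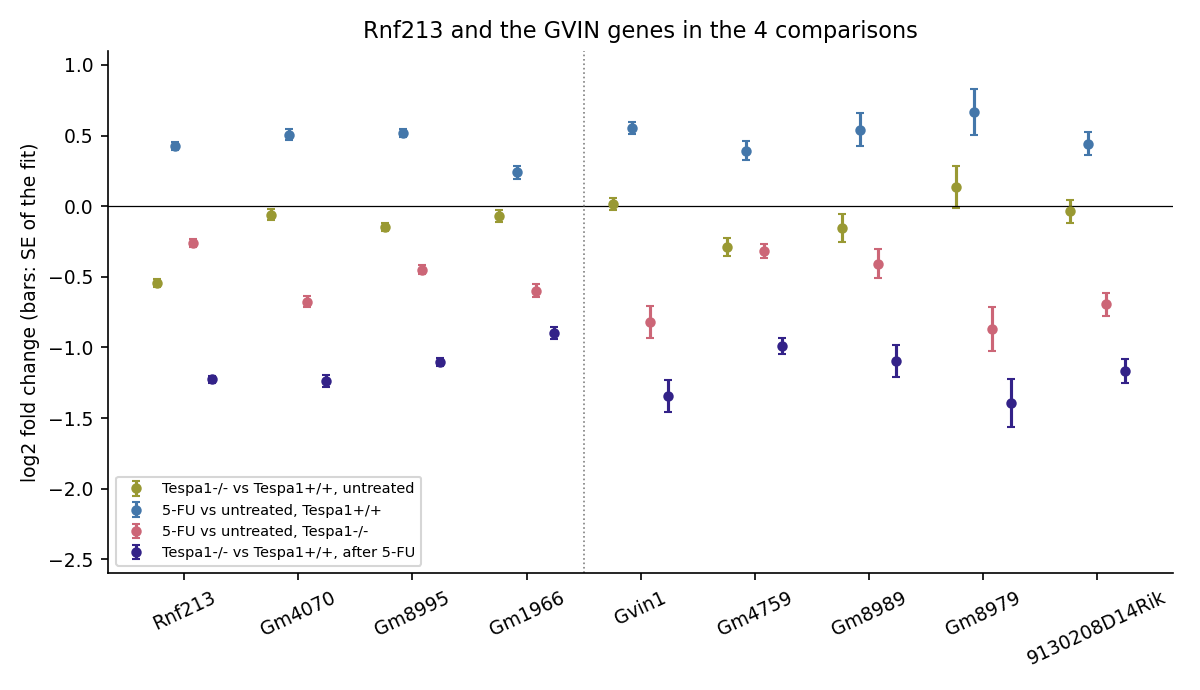
Log2 fold change (vertical axis) of the 4 members, left of the dotted line, and of 5 other chromosome 7 genes in the 4 comparisons, marked by colour. Bars are the SE derived from the edgeR test. Every gene lies above 0 after 5-FU in Tespa1+/+ and below 0 after 5-FU in Tespa1-/- LSKs, and the untreated genotypes differ most for Rnf213, at -0.54.

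Rnf213 and the GVIN genes did not keep a fixed proportion. The log2 ratio of Rnf213 to the summed CPM of the 7 GVIN genes was -0.79, -0.85 and -0.83 in untreated Tespa1+/+ LSKs and -1.31, -1.24 and -1.28 in untreated Tespa1-/- LSKs. It was -0.87, -0.88 and -0.85 after 5-FU in Tespa1+/+ LSKs and between -1.01 and -0.85 after 5-FU in Tespa1-/- LSKs, where replicate 2 had the highest ratio. All libraries of untreated Tespa1-/- LSKs lay below those of the other 3 groups.

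That library also differed in how counts were divided between the near-identical genes. Counts of Gvin1 per count of Gm4070 were 0.996 there and 1.24 to 1.38 in the other 11 libraries. Gm4070 itself had 316, 299 and 296 CPM in the treated Tespa1-/- libraries, while Gvin1 had 424, 298 and 408 CPM. The pair summed had 740, 597 and 704 CPM there and 1646 to 1696 CPM in the treated Tespa1+/+ libraries, a log2 fold change of -1.30 (SE 0.07). For the pair, the log2 fold change was 0.53 (SE 0.03) after 5-FU in Tespa1+/+, -0.76 (SE 0.07) after 5-FU in Tespa1-/- and -0.02 (SE 0.03) between untreated genotypes, the last beside -0.06 for Gm4070 alone. Without that library, the log2 fold change between genotypes after 5-FU was -1.23 for Gm4070 and -1.20 for Gvin1, and that after 5-FU in Tespa1-/- LSKs -0.66 and -0.67.

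**Figure D3:**
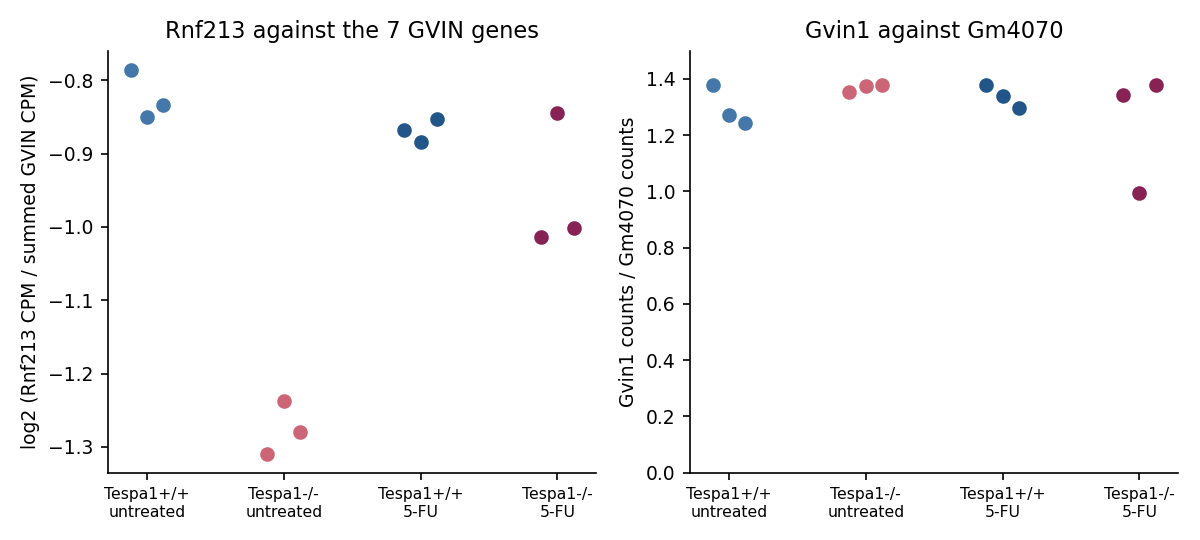
Left, log2 ratio of Rnf213 CPM to the summed CPM of the 7 GVIN genes in each library; right, Gvin1 counts per Gm4070 count. Untreated Tespa1-/- libraries lie lowest in the left panel, at -1.31 to -1.24, and 1 treated Tespa1-/- library, at 0.996, lies below the others in the right panel.

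Other GVIN genes of the cluster were not among the members. Gvin1, the protein-coding gene that names the family, shares 96.6% of its 100-base windows with Gm4070, so its values repeat those of that member and are given without a test. Its log2 fold change was 0.55 (SE 0.04) after 5-FU in Tespa1+/+ LSKs and -0.82 (SE 0.11) in Tespa1-/- LSKs. Between genotypes it was -1.35 (SE 0.11) after 5-FU and 0.02 (SE 0.04) in untreated LSKs.

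The pseudogene Gm4759, none of whose 100-base windows occurs in another gene's transcript, gives the same comparisons without shared reads. It was lower in Tespa1-/- LSKs after 5-FU with a log2 fold change of -0.99 (SE 0.06, adjusted p = 1e-05, quasi-likelihood test of edgeR, p adjusted by Benjamini-Hochberg here and below). It rose by 0.39 in Tespa1+/+ (adjusted p = 0.00689) and fell by 0.32 in Tespa1-/- LSKs (adjusted p = 0.00313). It was also lower in untreated Tespa1-/- LSKs, at -0.29 (SE 0.06, adjusted p = 0.031), short of 1.5-fold, and without any of 5 of the 6 libraries the adjusted p was above 0.05 (up to 0.151).

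Gm8979 and Gm8989 share 61.5% and 61.7% of their 100-base windows with each other and 11.1% and 7.5% with Gm4070, and 29.0% and 36.5% occur in no other gene, so they are not separate measurements. Both were called lower in Tespa1-/- LSKs after 5-FU, with Gm8979 at -1.39 (adjusted p = 0.000796) and Gm8989 at -1.10 (adjusted p = 0.000313) by edgeR. The medians of the 4 genes, Gvin1 included, were -1.22 here, 0.55 after 5-FU in Tespa1+/+ and -0.61 after 5-FU in Tespa1-/-, where the medians of all genes tested were -0.01, 0.01 and -0.01. Of Gm4759, Gm8979 and Gm8989, Gm8979 alone reached the 1.5-fold threshold after 5-FU in either genotype. The interaction had an adjusted p below 0.05 for these 3, from -0.70 for Gm4759 (adjusted p = 0.000303) to -1.52 for Gm8979 (adjusted p = 0.00109). Gm8979 and Gm8989 are 99.2% identical to each other, and their rises in Tespa1+/+ LSKs (adjusted p = 0.0399 and 0.0216) rested on all libraries: without any 1 of the 6 libraries for Gm8979, or without replicate 1 or 2 of the untreated or 2 or 3 of the treated group for Gm8989, the adjusted p was at or above 0.05, up to 0.141. The fall of Gm8989 in Tespa1-/- LSKs (-0.41, adjusted p = 0.0205) was likewise lost without any untreated library or without replicate 2 of the treated group, with an adjusted p up to 0.081.

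Other genes within 300 kb of the chromosome 7 members were called in no comparison, apart from 3 pseudogenes of GVIN sequence or location. 9130208D14Rik, an unprocessed pseudogene at chr7:105824223-105831515 that was 89.8% identical to Gm4070 and shared 14.4% of its 100-base windows with it, moved as the GVIN genes did: it was lower in Tespa1-/- LSKs after 5-FU by -1.17 (SE 0.08, adjusted p = 3.04e-05, edgeR), higher after 5-FU in Tespa1+/+ by 0.44 (adjusted p = 0.0116) and lower after 5-FU in Tespa1-/- by -0.70 (adjusted p = 0.00052). Gm18852 and Gm18853, pseudogenes inside Gm4070 and Gvin1 on the same strand, were lower in Tespa1-/- LSKs after 5-FU, with log2 fold changes of -1.54 (adjusted p = 0.000796, edgeR) and -1.38 (adjusted p = 1.63e-05). They share 97.1% and 97.0% of their 100-base windows with each other, so they count as a single measurement, and 5.2% with transcripts of Gm4070. Their share of unspliced RNA of the surrounding genes was not measured. Of the other 40 genes in that range, 12 or 13 were tested in each comparison, namely Arfip2, Dnhd1, Gm45684, Gm45799, Ilk, Mrpl17, Mrps36-ps2, Rrp8, Taf10, Timm10b, Tpp1 and Trim3, and Hpx between untreated genotypes. Of these 0 were called in either direction by edgeR; without the fold threshold Arfip2 (0.44, adjusted p = 0.0357) and Ilk (0.43, adjusted p = 0.0213) were higher after 5-FU in Tespa1-/- LSKs, and none had an adjusted p below 0.05 in the other 3 comparisons. The GVIN-like pseudogene Gm27149 was at -0.58 between genotypes after 5-FU (adjusted p = 0.612). The median of the 12 between genotypes after 5-FU was 0.06. Around Rnf213, 9 of 21 neighbours were tested, and between genotypes after 5-FU 1 was called lower, Tbc1d16 (-0.75, adjusted p = 0.00637), and 0 higher, with a median of 0.10. In Tespa1-/- LSKs after 5-FU, Tbc1d16 (-1.06, adjusted p = 0.000207) and Slc26a11 (-0.94, adjusted p = 0.00996) fell and Endov (0.87, adjusted p = 0.0196) rose, so these 9 genes were called in both directions there.

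Most of the interferon-induced genes listed were, like the members, lower in Tespa1-/- LSKs after 5-FU, and fewer were called in the other comparisons. The lists hold 18 IRG genes, 13 GBP and Mx genes and 42 type I interferon targets, of which 66 or 67 were tested in each comparison. These lists, and those below, were chosen with earlier results of these data known, so their counts are a description and support nothing. The shares of all genes given here apply to the lists below as well. After 5-FU, 49 of 66 were called lower and 0 higher in Tespa1-/- LSKs, and all 66 had a value below 0 (median -0.87, log2). Of all genes tested 3.03% were called lower and 3.95% higher there, with a median of -0.01. In Tespa1+/+ LSKs 5-FU raised 30 of 66 and lowered 0 (median 0.58), and in Tespa1-/- LSKs it lowered 11 of 67 and raised 2 (median -0.25). Of all genes 2.74% were called higher and 1.69% lower in Tespa1+/+, and 4.07% lower and 6% higher in Tespa1-/- LSKs. The 11 became 6 and 7 without replicates 2 and 3 of the untreated Tespa1-/- group. Between untreated genotypes 0 of 66 were called higher and 1 lower (median -0.09), and the interaction was called with a lower response in Tespa1-/- LSKs for 42 of 67 (edgeR adjusted p below 0.05). The shares of all genes were 0.973% higher and 1.54% lower between untreated genotypes, and 1.99% lower and 3.02% higher for the interaction.

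The IRG genes, GTPases that attack the vacuoles of intracellular pathogens, were called after 5-FU in both genotypes, in opposite directions. In Tespa1+/+ LSKs 3 of 13 rose after 5-FU, among them Irgm2 (0.90, SE 0.12, adjusted p = 0.00202) and F830016B08Rik (0.76, adjusted p = 0.0462). In Tespa1-/- LSKs 7 of 13 fell, led by Gm5431 (-1.63, adjusted p = 0.0194) and Gm4951 (-0.89, adjusted p = 0.037), and the 7 became 4 without replicate 2 or 3 of the untreated Tespa1-/- group. Between genotypes after 5-FU 12 of 13 were lower (median -1.13), with Gm5431 at -2.36 (adjusted p = 0.00421) and F830016B08Rik at -2.02 (adjusted p = 0.00131), and 0 of 13 were called between untreated genotypes.

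Of the GBP and Mx genes, 6 of 11 rose after 5-FU in Tespa1+/+ LSKs, led by Gbp9 (1.41, adjusted p = 0.00298) and the antiviral GTPase Mx1 (1.32, adjusted p = 0.00279). In Tespa1-/- LSKs 3 of 12 fell, among them Gbp6 (-1.81, adjusted p = 0.00271) and Mx1 (-0.94, adjusted p = 0.0194), and 1 remained without replicate 2 of the untreated group. Between genotypes after 5-FU 7 of 11 were lower by the edgeR test, with Mx1 at -1.94 (adjusted p = 0.000503) and Gbp6 at -1.82 (adjusted p = 0.00302).

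Of the type I interferon targets, many rose after 5-FU in Tespa1+/+ LSKs (21 of 42, led by Ifit1bl1 at 3.00, adjusted p = 0.00031, and Ifit3b at 2.12, adjusted p = 0.00135). In Tespa1-/- LSKs 1 of 42 fell, Ifi44 (-1.16, adjusted p = 0.000747), and 2 rose, Ifit1bl1 (2.22, adjusted p = 0.000747) and Cmpk2 (0.67, adjusted p = 0.000931), with a median of -0.11 for the list, and without the fold threshold 11 fell. After 5-FU 30 of 42 were lower in Tespa1-/- LSKs, led by Ifit3 (-2.43, adjusted p = 4.11e-06) and Ifit3b (-2.34, adjusted p = 0.00122), both of the Ifit family of antiviral factors. In untreated LSKs 1 of 42 was called, the antiviral enzyme gene Rsad2 (viperin), at -1.30 (SE 0.14, adjusted p = 0.00128).

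**Figure D4:**
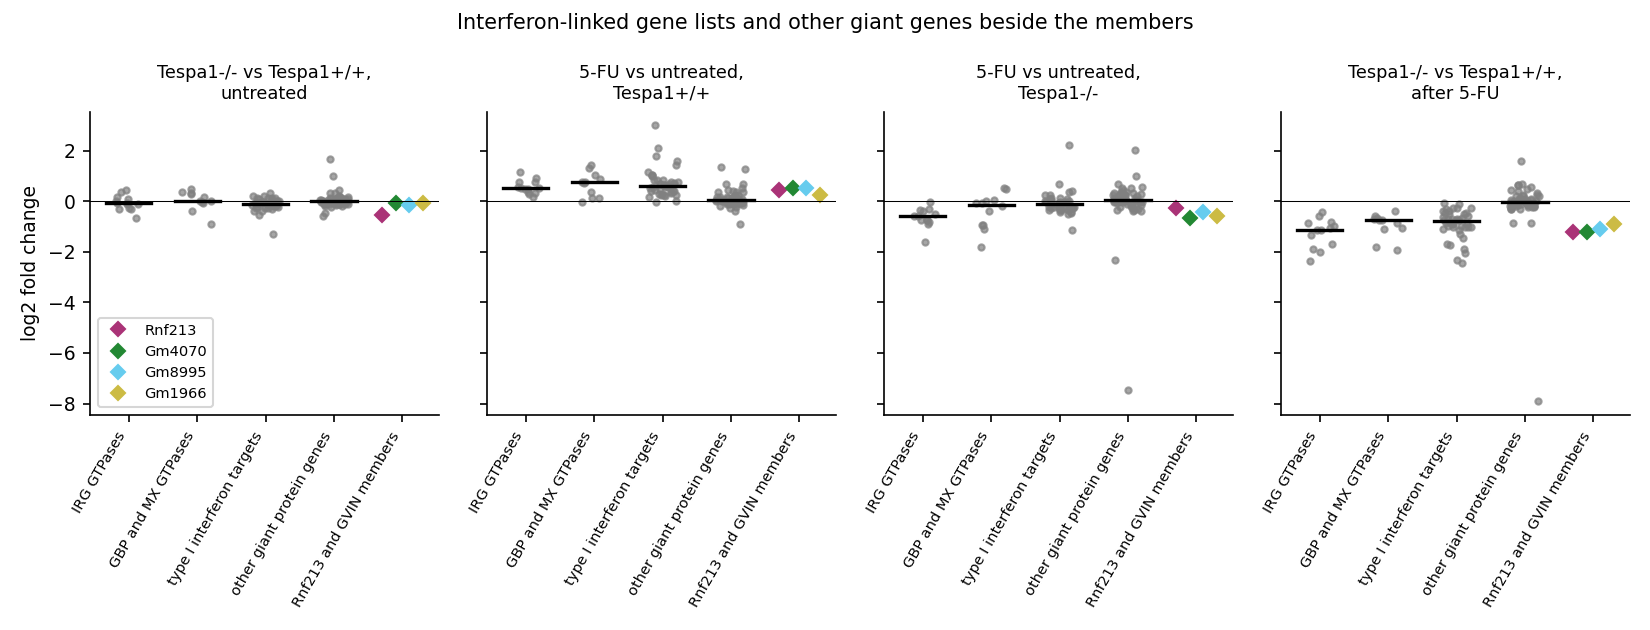
Log2 fold change (vertical axis) of listed genes in the 4 comparisons, with grey points for genes, black bars for list medians and diamonds for the members. After 5-FU the interferon-linked lists lie below 0 in Tespa1-/- against Tespa1+/+ LSKs (medians -1.13, -0.75 and -0.79) and the other giant protein genes around -0.05.

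Some genes of the interferon pathway itself were called. Among the listed genes of receptors, transcription factors and their regulators, Nlrc5, the activator of MHC class I genes, was lower in Tespa1-/- LSKs after 5-FU (-0.59, SE 0.05, adjusted p = 0.000125, edgeR). The feedback inhibitor Socs3 was lower in untreated Tespa1-/- LSKs (-0.99, adjusted p = 8.04e-05) and fell after 5-FU in Tespa1+/+ LSKs (-0.86, adjusted p = 0.000113), and Irf1 fell after 5-FU in Tespa1-/- LSKs (-0.60, adjusted p = 0.000315). The 19 genes of the interferons themselves summed to at most 2.20 CPM in any library, and to at most 0.136 CPM in untreated Tespa1+/+ LSKs, where 16 of the 19 had 0 counts in all 3 libraries. In untreated Tespa1-/- LSKs they summed to 1.31 to 2.04 CPM, with 10 of 19 above 3 counts in a library, and in treated Tespa1+/+ and Tespa1-/- LSKs to 1.21 to 2.20 and 1.67 to 1.90 CPM. The untreated Tespa1-/- libraries also had more genes with a count, 27219 to 29523 against 21141 to 24745 in the other 9 libraries. Ifng had 0 counts in every untreated library, 0.0390 to 0.424 CPM in treated Tespa1+/+ and 0.987 to 1.59 CPM in treated Tespa1-/- LSKs. Its rise after 5-FU in Tespa1-/- LSKs was called (adjusted p = 0.00273, edgeR), with no fold given because the untreated libraries were at 0, and the difference between the treated genotypes did not pass the test (log2 fold change 2.49, SE 0.82, adjusted p = 0.08, edgeR).

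Of 25 genes listed as partners or cofactors of RNF213 and of ubiquitin-like conjugation, 23 were tested, and 3 were lower and 2 higher in Tespa1-/- LSKs after 5-FU (median -0.08). Herc6, a ligase for the interferon-induced modifier ISG15, was at -0.91 (adjusted p = 0.000211) and Usp18, which removes it, at -0.82 (adjusted p = 0.000352), while Carhsp1 (1.19, adjusted p = 0.00178) and the autophagy receptor gene Optn (0.81, adjusted p = 0.000866) were higher. After 5-FU in Tespa1+/+ LSKs 4 of 23 were called higher and 0 lower, among them Optn (1.39, adjusted p = 0.000685) and Herc6 (0.83, adjusted p = 0.000531). In Tespa1-/- LSKs 2 of 23 were called higher after 5-FU, Carhsp1 (1.65, adjusted p = 0.00024) and Optn (1.16, adjusted p = 4.14e-05), and 0 lower. Optn was also higher in untreated Tespa1-/- LSKs (1.03, adjusted p = 0.00447), where Rnf213 was lower.

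Other giant genes were called in both directions. Among 54 other genes for giant proteins, 53 were tested between genotypes after 5-FU, 4 were higher and 2 lower, and their median log2 fold change was -0.05. Syne1 (1.58, adjusted p = 1.01e-06) and Ahnak (0.68, adjusted p = 3.84e-05) were higher and Dst (-0.86, adjusted p = 0.000193) lower, all of them genes for giant cytoskeletal or scaffold proteins. The 2 lower became 1 without replicate 2 of the treated Tespa1+/+ group. Ahnak was called the other way in untreated Tespa1-/- LSKs (-0.61, adjusted p = 0.000553, edgeR), a call that ended, short of 1.5-fold, without replicate 1 of the Tespa1+/+ group (-0.584) or of the Tespa1-/- group (-0.575) and with a length correction (-0.579). It fell after 5-FU in Tespa1+/+ LSKs (-0.90, adjusted p = 2.71e-05), where Nbea (1.28, adjusted p = 0.00478) and Dst (0.68, adjusted p = 0.000981) rose. In Tespa1-/- LSKs 3 of 54 were called higher after 5-FU, among them Syne1 (2.02, adjusted p = 1.92e-07) and Dmxl2 (0.97, adjusted p = 0.00646), and 2 lower. Without the fold threshold 20 rose and 10 fell there. The 2096 genes longer than 12 kb had a median of -0.09 with a 5th percentile of -0.92, against -1.23 for Rnf213. Genes of 8 to 12 kb had a median of -0.03 with a 5th percentile of -0.99, against -1.24 for Gm4070 and -1.10 for Gm8995. Gm1966, at -0.90, lay above the 5th percentile of genes of 4 to 8 kb (-1.05).

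**Figure D5:**
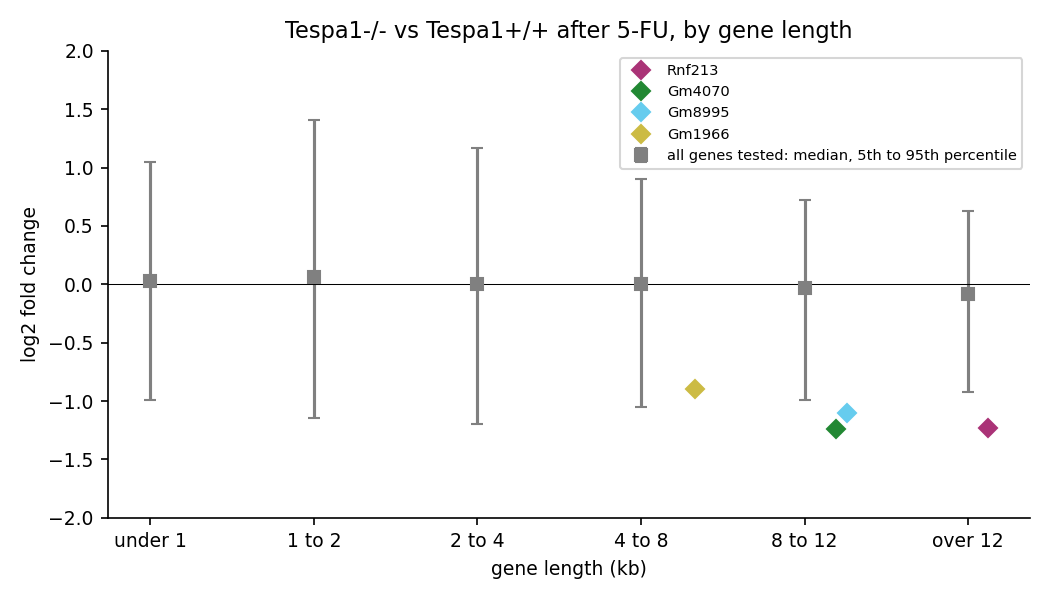
Log2 fold change of Tespa1-/- against Tespa1+/+ LSKs after 5-FU (vertical axis) by gene length in kb (horizontal axis). Squares are the median of all genes tested in each length class with bars from the 5th to the 95th percentile, and diamonds are the members; Rnf213, Gm4070 and Gm8995 lie below the bar of their class and Gm1966 within it.

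The genes whose level followed each member most closely were ranked by Pearson's r of log2(CPM + 1) over the 12 libraries, among 14934 genes. These r describe mainly the 4 group means and carry no test. For Rnf213 they were Adgrl4 (r = 0.98), an endothelial adhesion receptor, the cholesterol exporter Abca1 (0.978), the GVIN pseudogene Gm4759 (0.976) and the genes of the RNA sensors LGP2 and RIG-I, Dhx58 (0.971) and Ddx58 (0.971). Being picked for this likeness, they are described here without a test. The log2 fold changes between untreated genotypes were -0.51 for Adgrl4, -0.46 for Abca1, -0.39 for Ddx58 and -0.37 for Dhx58, beside -0.54 for Rnf213.

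For Gm4070 the closest genes were Gm8995 (r = 0.986), 9130208D14Rik (0.986), the IRG genes Tgtp1 (0.982) and Tgtp2 (0.978), and Gm1966 (0.978). For Gm8995 they were Gm4070, 9930111J21Rik2 (r = 0.985), Gm8989 (0.982), the IRG gene Iigp1 (0.98) and Oas3 (0.979), an enzyme that senses double-stranded RNA. For Gm1966 they were Gm19590 (r = 0.99), Gm4070, Tgtp1 (0.974 with Gm1966) and the DNA-sensor family genes Ifi203 (0.978) and Ifi213 (0.967). Tgtp1 was at -0.07 between untreated genotypes and at -1.35 after 5-FU, where Gm4070 had -0.06 and -1.24. None of the 5 genes nearest to Rnf213 was among the 5 nearest to a GVIN member.

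Markers of other cells moved with the groups. Library totals ran from 22118154 to 28275079 counts. Summed CPM of 14 neutrophil markers was 1156 to 1165 in treated Tespa1-/- LSKs and 21.4 to 49.2 in the other groups, and that of 11 erythroid markers 665 to 672 against 102 to 164. Markers of LSKs summed to 800 to 868 CPM in treated Tespa1-/- and to 1330 to 1374 CPM in treated Tespa1+/+ LSKs. Among these was Ly6a, which encodes the Sca-1 antigen used in the sort and is itself interferon-inducible, at a log2 fold change of -1.24 (SE 0.31, adjusted p = 0.0265, edgeR). B-cell markers were at 64.8 to 77.4 CPM in untreated Tespa1+/+ libraries, 290 to 303 CPM in treated Tespa1+/+ libraries and 336 to 353 CPM in treated Tespa1-/- LSKs. In treated Tespa1+/+ and treated Tespa1-/- libraries T and NK markers were at 33.8 to 41.9 and 82.0 to 90.6, monocyte markers 301 to 327 and 293 to 302, plasmacytoid dendritic cell markers 301 to 333 and 208 to 262, and endothelial markers 302 to 314 and 272 to 292. Such sums are led by the most abundant markers. Between treated genotypes 9 of 10 LSK markers were below 0 (6 called lower, 0 higher). Of 10 monocyte markers 7 were above 0 there (1 called lower, 0 higher). Of 8 plasmacytoid dendritic cell markers tested, 3 were above and 5 below 0 (1 called higher, 0 lower). After 5-FU in Tespa1+/+ LSKs 8 of 10 LSK markers were above 0 (2 called higher, 1 lower), although their sum was lower. In untreated LSKs, where Rnf213 differed by genotype, LSK markers summed to 1600 to 1672 CPM in Tespa1+/+ and 1334 to 1386 CPM in Tespa1-/- libraries, plasmacytoid dendritic cell markers to 380 to 414 and 285 to 326, B-cell markers to 64.8 to 77.4 and 43.3 to 51.1, erythroid markers to 102 to 128 and 140 to 154, T and NK markers to 29.1 to 31.4 and 34.4 to 38.5, monocyte markers to 239 to 271 and 276 to 296, and endothelial markers to 209 to 222 and 202 to 218. Neutrophil markers there were 21.4 to 34.9 CPM in Tespa1+/+ and 37.2 to 39.2 CPM in Tespa1-/- libraries, with 10 of 14 above 3 counts in a library in either group. Of the defining ones Cd177 and Ly6g were at 0 counts in both groups, Camp and Ltf in untreated Tespa1+/+, Retnlg in untreated Tespa1-/-, and Cd177, Retnlg and Fcnb in treated Tespa1+/+ LSKs, while all 14 were above 3 counts in treated Tespa1-/- LSKs. The part of these cells in the levels of Rnf213 and the GVIN genes was not tested, and in bulk RNA fewer cells of a type and less RNA per cell cannot be told apart.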

How the data were processed

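RNA-seq of LSKs was deposited as a single table. Its counts per gene were made by the authors and deposited without normalization, and the authors deposited FPKM beside them. Dividing counts by FPKM and by library totals gave back 1 length for each gene, the same in every library to within 4.3e-06 of its value in 8529 genes with at least 200 counts. Per the labels, libraries were stranded, poly-A selected and paired-end, and the submitters' processing notes name CASAVA 1.8, HISAT2, StringTie, edgeR and the build GRCm38. The use of strand and the treatment of reads that match several genes are not given in the sources used here.

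Counts of the 6 libraries of each comparison were tested with the quasi-likelihood test of edgeR 4.0.16 (R 4.3.3) after filterByExpr (minimum count 10) and TMM, with Benjamini-Hochberg adjustment over all genes tested, and the interaction on the 12 libraries. Scripts were tested on simulated data. Groups were taken from the labels. Transcripts and exons were those of GENCODE M21, aligned with Biopython 1.88, and promoters those of RefSeq (GRCm38.p6), which held 2 of the 4 members. Plots used matplotlib 3.10.9. DESeq2 1.42.0 and other settings were run as alternatives.

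The members and gene lists were chosen with earlier results of these data known. Named genes were the members, listed GVIN genes, genes within 300 kb of the chromosome 7 members that passed the filter, the 2 called genes with the largest rise and the 2 with the largest fall per list and comparison at a mean of at least 1 CPM, the 5 genes most like each member, and Tespa1. Endov, Slc26a11, Tbc1d16, Ifng, Ly6a, the antisense genes and the markers at 0 fall outside this rule and were chosen after their values were seen. A gene that the rule named among the pathway genes is not reported here. Of 10 symbols listed as GVIN genes, 4 lay in the cluster and were used; 2 others lay elsewhere in the genome and 4 were not among the table's symbols.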

Additional observations from a re-analysis of the deposited data

Results flagged for a closer look

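The 5-FU response differed by genotype for a part of the genes named above, and only that part is listed here. Each value here is the log2 response in Tespa1-/- minus that in Tespa1+/+ LSKs. For Rnf213 (-0.68), Gm4070 (-1.17), Gm8995 (-0.95) and Gm1966 (-0.83) every treated library lay above every untreated one in Tespa1+/+ and below every untreated one in Tespa1-/- LSKs, and for these members, which were selected on these libraries, the difference is a description and was not tested. The same held for Gvin1 (-1.36), whose reads cannot be told apart from those of Gm4070.

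For the other genes edgeR's interaction test gave the adjusted p. Beyond the GVIN cluster and Tespa1, they were named for their changes in these same libraries, so these p add no independent support. Over whole lists the interaction was lower for 10 of 13 IRG genes, 5 of 12 GBP and Mx genes and 27 of 42 type I interferon targets, and higher for 0. It was lower for 4 and higher for 7 of 54 giant protein genes, and lower for 4 and higher for 3 of 23 partners of RNF213. In the GVIN cluster the difference was -0.70 for Gm4759 (0.000303), -0.94 for Gm8989 (0.00181), -1.52 for Gm8979 (0.00109), -1.13 for 9130208D14Rik (0.000107), and -1.45 for Gm18852 (0.00223) and -1.48 for Gm18853 (6.35e-05), a near-identical pair. Among IRG genes it was -1.34 for F830016B08Rik (0.047), -1.41 for Gm4951 (0.028), -2.79 for Gm5431 (0.00956) and -1.48 for Irgm2 (0.000629). Among GBP and Mx genes it was -1.77 for Gbp6 (0.00623) and -2.25 for Mx1 (0.00128). Among type I interferon targets it was -1.41 for Ifi44 (0.000567), -2.23 for Ifit3 (2.51e-05) and -2.17 for Ifit3b (0.0117), and in the pathway -0.50 for Nlrc5 (0.0137) and 0.43 for Socs3 (0.0093). Among giant protein genes it was 1.29 for Ahnak (2.75e-07), -0.64 for Dst (0.00699) and 1.68 for Syne1 (4.5e-06), and for Tespa1 it was -1.04 (0.00104).

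Among partners of RNF213 and of ubiquitin-like conjugation the difference was 1.72 for Carhsp1 (0.00701), -1.002 for Herc6 (0.000498) and -0.92 for Usp18 (0.000517).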

How the results depend on the processing

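No member changed direction in any of the 320 refits run for the members, of which 280 moved the value by less than the SD between libraries. The 5-FU response of Rnf213 ranged from 0.404 to 0.475 in Tespa1+/+ and from -0.275 to -0.202 in Tespa1-/- LSKs, and its genotype difference from -0.565 to -0.516 untreated and from -1.256 to -1.124 after 5-FU. Scaling by library totals without TMM gave, after 5-FU in Tespa1+/+ LSKs, 0.475 for Rnf213, 0.554 for Gm4070, 0.562 for Gm8995 and 0.286 for Gm1966, between genotypes after 5-FU -1.256 for Rnf213 and -1.132 for Gm8995, and as interactions -0.723, -1.216, -0.997 and -0.869 in the order Rnf213, Gm4070, Gm8995, Gm1966. A length correction gave 0.476 for Gm4070 and 0.486 for Gm8995 after 5-FU in Tespa1+/+, -0.202 for Rnf213 after 5-FU in Tespa1-/-, -0.13 for Gm8995 between untreated genotypes, and -1.124 for Rnf213 and -1.067 for Gm8995 after 5-FU. With the replicate block added these were 0.477, 0.486, -0.202, -0.13, -1.125 and -1.067. With no filter Gm8995 was at -0.168 between untreated genotypes. Summing the 7 GVIN genes gave 0.474 after 5-FU in Tespa1+/+, -0.584 in Tespa1-/- (short of 1.5-fold, where Gm4070 and Gm1966 alone passed it; Gm1966 fell short of it without TMM too, at -0.583), -0.091 between untreated and -1.141 between treated genotypes. Summing Gm4070 and Gvin1, an alternative chosen after seeing the data, gave -0.756, -0.017 and -1.298 in the last 3. Leaving out single libraries moved the interaction of Rnf213 between -0.706 and -0.663, of Gm4070 between -1.217 and -1.161 and of Gm8995 between -0.989 and -0.948. Gvin1 between untreated genotypes changed sign, from 0.02 to -0.007 with no filter and to -0.009 without Tespa1+/+ replicate 2, with values from -0.009 to 0.051 over the libraries left out, none of them past the threshold.

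Counts of called genes depended on the threshold by construction. With an unadjusted p, 1077 genes were higher and 602 lower after 5-FU in Tespa1+/+ and 1133 lower in Tespa1-/-, 603 higher and 546 lower between untreated genotypes (3 interferon-linked genes lower), and 1024 lower after 5-FU. With the adjusted p alone, 711 were lower after 5-FU in Tespa1+/+ (46 interferon-linked genes higher), 1847 higher and 1489 lower in Tespa1-/- (24 interferon-linked genes lower), 280 and 612 between untreated genotypes (4 interferon-linked genes lower), and 1265 and 996 after 5-FU. DESeq2 called 278 genes higher between untreated genotypes in place of 166, and 869 higher and 666 lower interactions in place of 564 and 372; the cause was not tested. Leaving out single libraries gave 289 to 410 genes higher after 5-FU in Tespa1+/+ in place of 466, 6 to 11 interferon-linked genes lower in Tespa1-/-, 51 to 185 genes higher and 155 to 244 lower between untreated genotypes, and 347 to 484 higher and 219 to 378 lower interactions. The interferon-linked genes lower in Tespa1-/- LSKs after 5-FU numbered 45 to 49 over the libraries left out, 52 with the unadjusted p and 56 with the adjusted p alone.

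The correlation of deviations of same-numbered libraries from their group means ran from -0.076 to 0.026, so no deviation shared by replicate number was seen. With 3 libraries a group this cannot exclude that same-numbered libraries were handled together. The replicate block gave 74 genes higher between untreated genotypes in place of 166, and 63 with the length correction. Under this block the adjusted p (edgeR) of Gm8989 after 5-FU in either genotype, of Gm8979 after 5-FU in Tespa1+/+ and of Gm4759 between untreated genotypes was 0.0517 to 0.0899, no longer below 0.05; of these Gm8979 alone had been called, a call that fitting with no filter on low counts ended too (adjusted p = 0.0604). Between 22118154 and 28275079 counts a library, each member had at least 6561 counts.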
